A study of Rattus norvegicus with 8 samples.

Results

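Potassium channel genes were examined in the spinal cord of stressed and control rats. The members were the genes whose array name starts with Kcn followed by a letter: 92 genes with 124 probes, out of 16354 gene symbols and 30367 probes on the array. The brightest probe stood for each gene. By name, 40 were pore-forming voltage-gated (Kv) genes, 15 inward rectifiers (Kir), 13 two-pore leak channels (K2P), 7 calcium- or sodium-activated channels (KCa and KNa) and 17 auxiliary subunits or regulators. RefSeq held 90 of the 92 names as current symbols, and Kcne1l and Kcnq5l are older names of Kcne5 and Kcnq5.

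All rats were male and 12 weeks old, of the Wistar strain. The stressed group of 4 rats was subjected to water avoidance (WA) stress every day for 10 days, and its tissue was taken 24 hours after the last exposure. The other 4 rats were controls. RNA from the L6S1 lumbar cord of each rat, with the meninges removed, was hybridized to 1 single-colour Agilent array. The 8 arrays shared 1 slide. Its rows followed the groups, so that row and group cannot be told apart.

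Potassium channels let potassium leave or enter the cell and so set the resting potential, the shape of the action potential and the firing rate of neurons. Kv channels open on depolarization, Kir channels pass current best near rest and clear potassium into astrocytes, and K2P channels carry the background leak. KCa channels open when calcium rises, and auxiliary subunits set the gating and surface delivery of the pores they bind. In the dorsal horn these currents restrain sensory neurons and relay neurons.

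A level here is the log2 processed signal of a probe minus the 75th percentile of its array, and a difference is the stressed mean minus the control mean on that log2 scale. Levels of different probes are not compared, since probes differ in brightness. Probes entered the test if 4 or more arrays showed them well above background. This held for 84 of the 92 genes and 109 of the 124 probes. Kcna10, Kcnj1, Kcnj2 and Kcnj15 were well above background on no array, and Kcnj13, Kcnk15, Kcnk18 and Kcnmb1 on too few. A gene was called when its adjusted p in limma was below 0.1, and stricter calls used 0.05. In bulk cord, fewer cells of a type and less RNA per cell cannot be told apart.

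One control array stood apart. On the first principal component, control replicate 2 lay at 46.1, while the other controls lay between -56.3 and -39.4 and the stressed arrays between 8.23 and 34.5. A 5′ minus 3′ value was computed for each array from 1885 transcripts with probes at least 300 bases apart. It was 0.22 in control replicate 2, -0.30 to -0.18 in the other controls and 0.09 to 0.17 in the stressed arrays (exact two-sided permutation p = 0.143 between groups, where the smallest possible is 0.0286). Among the arrays other than control replicate 2 the value separated the groups, so that value and group cannot be told apart there. The same array gave the highest control level in 58 of the 84 tested Kcn genes (69%, against 53.6% of all gene symbols). Where a named Kcn gene passed the threshold without this array, that value is given beside the one with all arrays. Its value with the 5′ minus 3′ value as a covariate is given as well.

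Kcnrg was the 1 potassium channel gene called by its brightest probe. Kcnrg encodes a soluble relative of the Kv tetramerization domain that binds Kv subunits and lowers their surface current. Among the 84 genes, 1 (1.19%) passed the threshold, against 3.62% of all tested gene symbols. Among the 109 probes, 2 passed, against 3.74% of all tested probes. None passed the stricter threshold.

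The Kcnrg probe was read from the array files, and its sequence is shown because the call rests on this 1 probe. It lies at chr15:40754714-40754773 on the plus strand of the rn4 build.
Kcnrg: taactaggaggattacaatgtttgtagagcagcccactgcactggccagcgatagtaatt

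The Kcnrg level was -6.27, -6.19, -6.36 and -6.18 in the controls and -5.54, -5.90, -5.69 and -5.74 in the stressed rats. Every stressed rat lay above every control. The difference was 0.53 (SE 0.09, n = 4 and 4, limma adjusted p = 0.0583). It was 0.56 without control replicate 2 (limma adjusted p = 0.00609). Leaving out any 1 of the other 7 arrays ended the call, with differences between 0.48 and 0.60. The call was lost under quantile normalization, where the difference was 0.35, and with normexp background correction, where it was 0.21. Trim13, which directly precedes Kcnrg in RefSeq, was looked up after the Kcnrg values were seen, and its difference was -0.03 (SE 0.20).

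**Figure D1:**
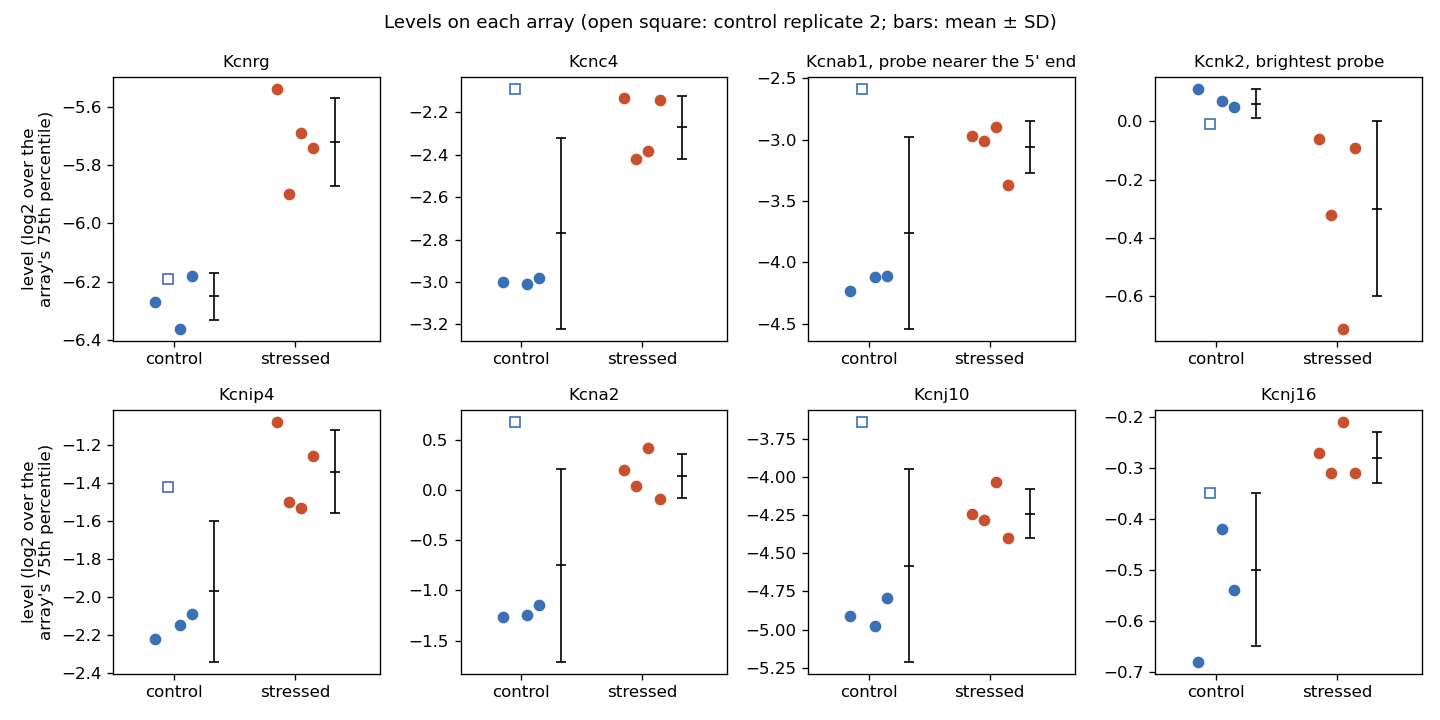
Level of 8 probes on each of the 8 arrays (log2 signal over the array's 75th percentile; each panel has its own axis). Points are single rats, the open square is control replicate 2 and the bars beside them are the group mean ± SD. Kcnrg lies higher in all 4 stressed rats, and in Kcna2 and Kcnj10 the open square lies above the stressed rats.

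At an unadjusted p below 0.05 there were 11 genes (13.1%), against 19.8% of all gene symbols. Of these, 8 were higher in the stressed rats, where 11.3% of all symbols were, and 3 were lower, where 8.5% of all symbols were. Quantile normalization also gave 11 genes at that threshold, not the same set, with 4 higher and 7 lower. The groups did not overlap in 4 of the 84 genes (4.76%), against 13.1% of all symbols. Of these, 2 were higher, Kcnrg and Kcnj16, and 2 were lower, Kcnk2 among them. The median difference was 0.10 over the Kcn genes, of which 69% were positive. It was 0.02 over all tested gene symbols, of which 54.1% were positive, and 0.06 over all tested probes. Under quantile normalization the medians were -0.02 over the Kcn genes and -0.00 over all tested probes.

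**Figure D2:**
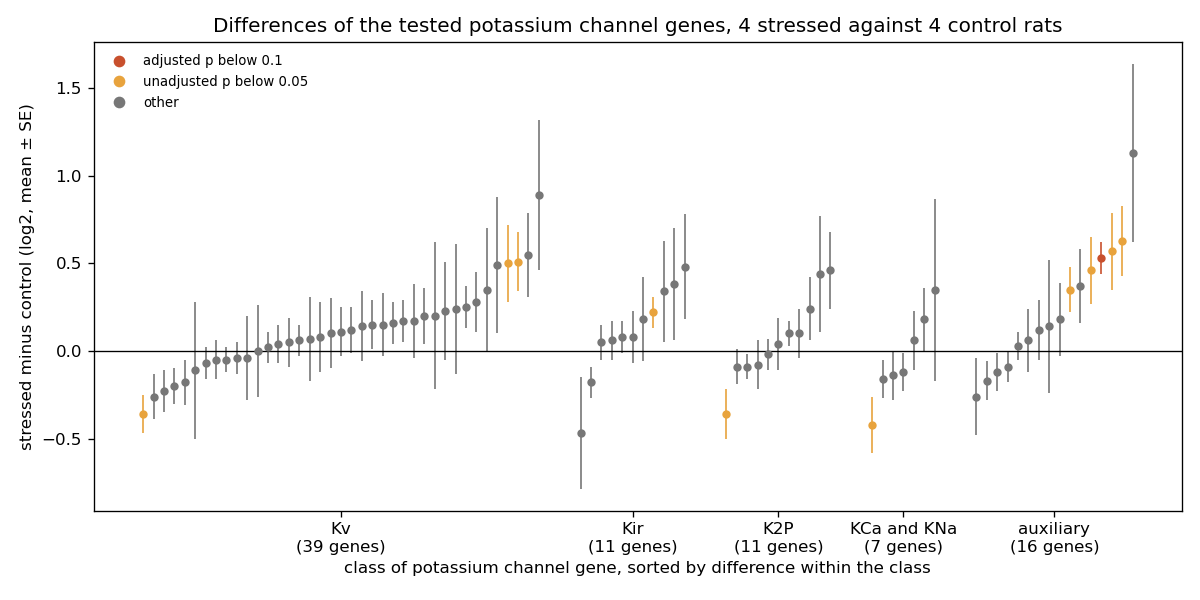
Stressed minus control difference (log2, mean ± SE) of the 84 tested genes, each point 1 gene, grouped by class and sorted within it. Red is an adjusted p below 0.1 (Kcnrg), orange an unadjusted p below 0.05. Most points lie within 0.5 of 0. The auxiliary class holds 5 of the 11 genes at an unadjusted p below 0.05. That is 31.2% of its 16 tested genes, against 19.8% of all gene symbols.

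Kv channel genes were the largest class. Of 39 tested, none was called, 28 had a positive and 11 a negative difference, and the median was 0.11. All 7 tested Kcna genes, the Shaker-type channels that include the juxtaparanodal pair Kcna1 and Kcna2, had a positive difference, with a median of 0.17. Under quantile normalization Kcna5 and Kcna7 were negative, at -0.09 and -0.06. With the 5′ minus 3′ value as a covariate Kcna2 (-0.20), Kcna5 (-0.08), Kcna6 (-0.33) and Kcna7 (-0.25) were negative, and Kcna1, Kcna3 and Kcna4 stayed positive. Kcna3 (0.67, limma adjusted p = 0.083) and Kcna6 (0.38, limma adjusted p = 0.0222) were called higher without control replicate 2. With all arrays Kcna3 was 0.55 and Kcna6 0.17, and with the covariate Kcna3 was 0.35. Kcna1 was near the same level in both groups (0.11, SE 0.14). Its levels ran from 3.70 to 4.31 in the controls and from 3.95 to 4.27 in the stressed rats.

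Kcna2 had the largest positive difference among Kv genes, and it turned on 1 array. Its level was -1.27, 0.68, -1.25 and -1.15 in the controls and 0.20, 0.04, 0.42 and -0.09 in the stressed rats. Control replicate 2 lay above every stressed rat, and the other 3 controls lay below every stressed rat. The difference was 0.89 (SE 0.43, limma adjusted p = 0.285) with all arrays and 1.37 (limma adjusted p = 0.000833) without that control. With the 5′ minus 3′ value as a covariate it was -0.20.

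The genes of the Kcnc family did not move one way. Kcnc1 (0.20, SE 0.16) and Kcnc4 (0.50, SE 0.22, unadjusted p = 0.0485 in limma) were positive, while Kcnc2 (-0.20, SE 0.10) was negative by its brightest probe. A second Kcnc2 probe, on another transcript record, differed by 0.26 (SE 0.37). The Kcnc4 level was -2.09 in control replicate 2, between -3.01 and -2.98 in the other controls and -2.13, -2.42, -2.38 and -2.14 in the stressed rats. The first of these lay above every stressed rat, and the other controls lay below them all. Without that array Kcnc1 (0.36, limma adjusted p = 0.0119) and Kcnc4 (0.73, limma adjusted p = 0.00191) were called. With the covariate Kcnc1 was -0.17 and Kcnc4 0.01, and neither was called.

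The A-type channel genes of the Kcnd family, whose currents delay firing in dorsal horn neurons, held no called probe with all arrays. Kcnd2 differed by -0.04 (SE 0.09) and Kcnd3 by 0.35 (SE 0.35) by their brightest probes. Kcnd3 was called higher without control replicate 2 (0.74, limma adjusted p = 0.00285) and called lower with the covariate (-0.51, limma adjusted p = 0.0985). A second Kcnd2 probe, nearer the 3′ end and printed in 10 spots, was lower in all stressed rats. Its control levels were -0.29, -0.49, -0.40 and -0.33 and its stressed levels -0.50, -0.73, -0.74 and -0.58. The difference was -0.26 (SE 0.09, limma unadjusted p = 0.0169, limma adjusted p = 0.171).

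Among the M-current genes, which hold neurons below firing threshold, Kcnq5l differed by 0.07 (SE 0.24) and Kcnq3 by -0.23 (SE 0.12, limma adjusted p = 0.313). Without control replicate 2 Kcnq3 was called lower (-0.32, limma adjusted p = 0.0241), and with the covariate it was 0.0031. A second Kcnq3 probe, nearer the 5′ end, differed by 0.20 (SE 0.16). Kcnh2, the Erg1 channel, differed by -0.05 (SE 0.07), and its second probe by 0.13 (SE 0.10). Kcnv2, a silent modifier subunit, was the other Kv gene at an unadjusted p below 0.05 on the higher side (0.51, SE 0.17, limma adjusted p = 0.173). Its level averaged -2.37 ± 0.33 in the controls and -1.86 ± 0.17 in the stressed rats (SD, n = 4 each). Without control replicate 2 it was called (0.68, limma adjusted p = 0.00447), and with the covariate it was 0.15 and not called. A second Kcnv2 probe, nearer the 5′ end, was well above background on no array and was not tested.

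Of 15 inward rectifier genes 11 were tested and none was called. Their median difference was 0.08. Kcnj16, a partner of Kcnj10 in astrocytes, measured -0.68, -0.35, -0.42 and -0.54 in the controls and -0.27, -0.31, -0.21 and -0.31 in the stressed rats. Every stressed rat lay above every control, by a difference of 0.22 (SE 0.09, limma adjusted p = 0.22), which without control replicate 2 was 0.27 (limma adjusted p = 0.0339). With the covariate that difference was 0.11. Kcnj10 itself, the main potassium-clearing channel of astrocytes, was -4.91, -3.64, -4.98 and -4.79 in the controls and -4.24, -4.28, -4.03 and -4.40 in the stressed rats.

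Kcnj10 differed by 0.34 (SE 0.29, limma adjusted p = 0.513), with control replicate 2 above and the other controls below all stressed rats. Without that control the difference was 0.65 (limma adjusted p = 0.00391), and with the covariate it was -0.38 (limma adjusted p = 0.086), so the sign of the called value depended on the setting. Of 6 astrocyte markers none was called, where 3.62% of all gene symbols were. Gfap (0.81), Slc1a2 (0.42), Gja1 (0.30) and Aqp4 (0.26) were positive, and Slc1a3 (-0.20) and Aldh1l1 (-0.08) negative. The summed level of these markers, the log2 of their added signals, ran from 5.68 to 5.94 in the controls and from 5.83 to 6.23 in the stressed rats. Their part in the Kcnj10 and Kcnj16 values was not tested.

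The G-protein-gated channel genes carry the inhibitory current that opioid receptors open. By their brightest probes, Kcnj3 (0.08, SE 0.09) and Kcnj6 (0.08, SE 0.15) were close between the groups. A second Kcnj3 probe, on another transcript record, differed by 1.64 (SE 0.77, limma adjusted p = 0.274). It was well above background on only 2 control arrays, and measured -4.60 in control replicate 2 and -8.33 to -7.52 in the other controls. Kcnj9 had the largest positive difference of the class (0.48, SE 0.30), and a second probe gave 0.15 (SE 0.13). The ATP-sensitive pore genes Kcnj8 and Kcnj11 differed by 0.05 (SE 0.10) and 0.38 (SE 0.32). Without control replicate 2, Kcnj9 (0.76, limma adjusted p = 0.0227) and Kcnj11 (0.72, limma adjusted p = 0.0132) were called. With the covariate Kcnj9 was -0.19 and Kcnj11 -0.41, and neither was called. Kcnj4 had the largest negative difference (-0.47, SE 0.32) but was well above background on only 2 control and 3 stressed arrays, and it was 0.05 with normexp correction.

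Of the 11 tested K2P genes none was called, and their median difference was 0.04. Kcnk2 (TREK-1), a leak channel opened by stretch, heat and lipids, measured 0.11, -0.01, 0.07 and 0.05 in the controls and -0.06, -0.32, -0.71 and -0.09 in the stressed rats with its brightest probe. All stressed rats lay below all controls, and the difference was -0.36 (SE 0.14, limma adjusted p = 0.228). Its other probes did not follow, at 0.13 (SE 0.16) and 0.20 (SE 0.16), and both lie on another transcript record. The probe at 0.13 lies at chr13:105419270-105419329 on the minus strand and is shown so that the disagreement can be traced.
Kcnk2, probe nearer the 5′ end: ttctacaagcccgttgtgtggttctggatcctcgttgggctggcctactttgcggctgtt

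Of the other leak channels, Kcnk1 (TWIK-1) differed by 0.10 (SE 0.07) and the acid-sensitive Kcnk3 (TASK-1) by -0.09 (SE 0.07). Kcnk9 (TASK-3) differed by 0.44 (SE 0.33) and was called without control replicate 2 (0.79, limma adjusted p = 0.00807). With the covariate Kcnk9 was -0.36 and not called. Kcnk5 (TASK-2) had the largest positive difference (0.46, SE 0.22, limma adjusted p = 0.287). Its levels were -3.31, -3.71, -3.82 and -3.85 in the controls and -2.99, -3.18, -2.86 and -3.82 in the stressed rats, so that 1 stressed rat lay among the controls.

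All 7 calcium- and sodium-activated channel genes were tested, none was called, and their median difference was -0.12. Kcnma1, the pore of the BK channel, had the largest positive difference (0.35, SE 0.52). Its control levels were -3.14, -1.25, -3.49 and -3.40 and its stressed levels -2.08, -2.90, -1.96 and -2.95. Without control replicate 2 the difference was 0.87 (limma adjusted p = 0.0514), and with the covariate it was -0.85. A second Kcnma1 probe differed by 0.10 (SE 0.13).

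Kcnn4, an intermediate-conductance channel known mainly from blood and immune cells, had the largest negative difference (-0.42, SE 0.16, limma adjusted p = 0.212). It was -0.03 with normexp correction. Another Kcnn4 probe differed by 0.06 (SE 0.09). The small-conductance genes Kcnn2 and Kcnn3, which slow firing after a spike, differed by 0.06 (SE 0.17) and -0.16 (SE 0.11). The sodium-activated Kcnt1 differed by -0.12 (SE 0.11) and was called lower with the covariate (-0.32, limma adjusted p = 0.0962).

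The auxiliary genes had the highest median difference of the classes, 0.16 over 16 tested genes, with 12 positive and 4 negative. With the covariate that median was -0.05. All 4 KChIP genes, the calcium-binding subunits that assemble with Kcnd pores, were positive under the 75th percentile, quantile and normexp scalings, with a median of 0.46. Kcnip2 (0.57, SE 0.22), Kcnip3 (0.35, SE 0.13) and Kcnip4 (0.63, SE 0.20) had an unadjusted p below 0.05, and none was called, with the lowest limma adjusted p 0.155 for Kcnip4. Kcnip1 differed by 0.18 (SE 0.21).

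The Kcnip4 level was -2.22, -1.42, -2.15 and -2.09 in the controls and -1.08, -1.50, -1.53 and -1.26 in the stressed rats. Control replicate 2 lay within the stressed range, and the other controls below it. Without that control Kcnip2, Kcnip3 and Kcnip4 were all called (0.76, 0.44 and 0.81), and with the covariate none was (0.16, 0.15 and 0.22).

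Kcne1, a single-span partner of Kcnq1, had the largest difference among the 84 tested genes (1.13, SE 0.51, limma adjusted p = 0.26). It was well above background on all 4 stressed but only 2 control arrays, at -7.38, -6.63, -9.21 and -8.07 in the controls and -6.62, -7.19, -6.22 and -6.75 in the stressed rats. The difference was 0.26 with normexp correction, 0.67 without control replicate 3, 0.22 with the covariate and 1.53 without control replicate 2 (limma adjusted p = 0.0346), and under normexp that of Kcna2 (0.85) was larger. Kcne1l differed by 0.46 (SE 0.19, limma adjusted p = 0.235) and its second probe by 0.51 (SE 0.23). Without control replicate 2 its brightest probe was called (0.62, limma adjusted p = 0.018), and with the covariate that probe was 0.09. Kcne3 had the largest negative difference (-0.26, SE 0.22). Of the beta subunits, Kcnab2, which binds Kcna pores, differed by 0.37 (SE 0.21). It was called without control replicate 2 (0.60, limma adjusted p = 0.00189) and was -0.15 with the covariate. Kcnmb4, the neuronal BK beta subunit, differed by 0.06 (SE 0.18).

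The position of the probe along the transcript was compared next, with no test of single gaps. In 14 Kcn transcripts with tested probes at least 300 bases apart, the difference was higher at the probe nearer the 5′ end in 10 (71.4%), against 80.3% of all 1885 transcripts. The median gap was 0.10, against 0.28 over all. The largest gap was in Kcnab1, a beta subunit of Kv1 channels, at 0.70 (SE 0.36) near the 5′ end and -0.09 (SE 0.09) near the 3′ end.

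The Kcnab1 probe nearer the 5′ end measured -4.23, -2.59, -4.12 and -4.11 in the controls and -2.97, -3.01, -2.90 and -3.37 in the stressed rats. The other probe measured 1.75, 1.80, 1.66 and 1.60 in the controls and 1.64, 1.75, 1.40 and 1.64 in the stressed rats. On the first probe, control replicate 2 lay far above its group, and on the second it did not. The first probe, at chr2:155061631-155061690 on the plus strand, is shown because it marks where the 2 probes of this transcript gave unlike values.
Kcnab1, probe nearer the 5′ end: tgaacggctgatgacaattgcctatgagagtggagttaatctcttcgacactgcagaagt
Kcna7 showed the next largest gap (0.88 against 0.14), and Kcnj9 the largest in the other direction (0.15 against 0.48).

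**Figure D3:**
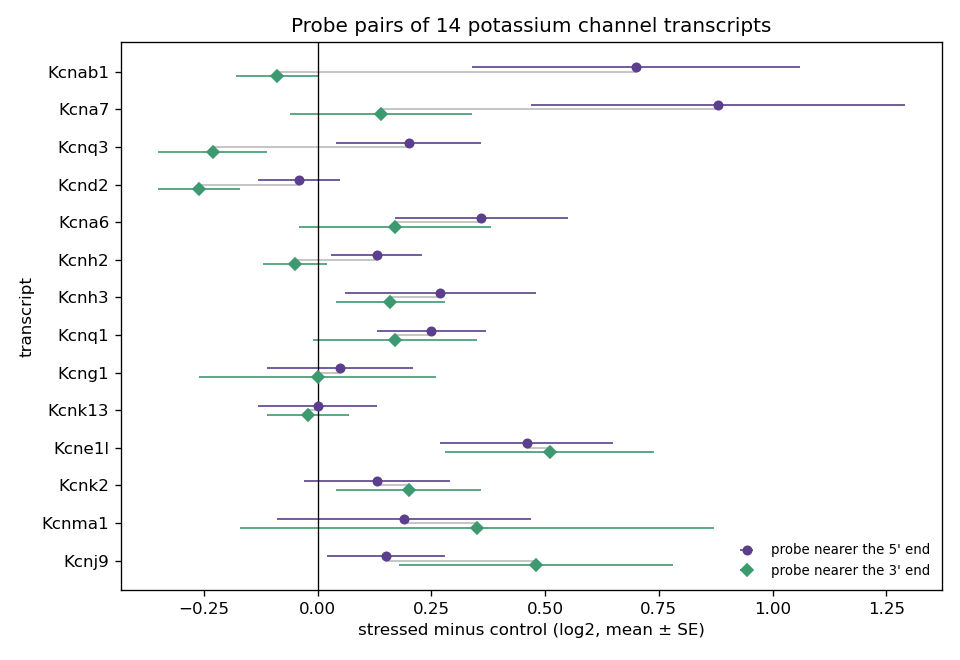
Stressed minus control difference (log2, mean ± SE) of the 2 probes of each of 14 Kcn transcripts, ordered by the gap between them. Circles are the probe nearer the 5′ end, diamonds the probe nearer the 3′ end. The circle lies to the right in 10 transcripts, most of all in Kcnab1, where the values are 0.70 and -0.09.

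The number of called genes changed with control replicate 2 and with the 5′ minus 3′ value. Without control replicate 2, 31 of the 84 genes were called (36.9%), 29 higher and 2 lower. Over all gene symbols 41.1% were called, 3535 higher and 1950 lower. By class the 31 Kcn genes were 11 higher and 2 lower of 39 Kv genes, 5 higher of 11 Kir, 4 higher of 11 K2P, 2 higher of 7 KCa and KNa and 7 higher of 16 auxiliary genes. Kcnq3 was 1 of the 2 lower genes.

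With the 5′ minus 3′ value of each array as a covariate, 10 genes were called (11.9%). Over all gene symbols 10.6% were called, 586 higher and 827 lower. Of the 10 Kcn genes, 9 were lower, among them Kcnf1 (-0.84), Kcne3 (-0.73), Kcnd3 (-0.51) and Kcnj10 (-0.38). The 1 higher gene was Kcnrg (0.47, limma adjusted p = 0.0783). Kcnf1 was named after its value was seen. It was 0.20 with all arrays and was called higher without control replicate 2 (0.66, limma adjusted p = 0.00664). Apart from control replicate 2 this value separated the groups, so the fit with the covariate cannot tell it from group without that array. The sign changed from that with all arrays in 37 of the 84 genes under the covariate and in 6 without control replicate 2. Kcnrg was higher and past the threshold in all 3 of these fits.

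**Figure D4:**
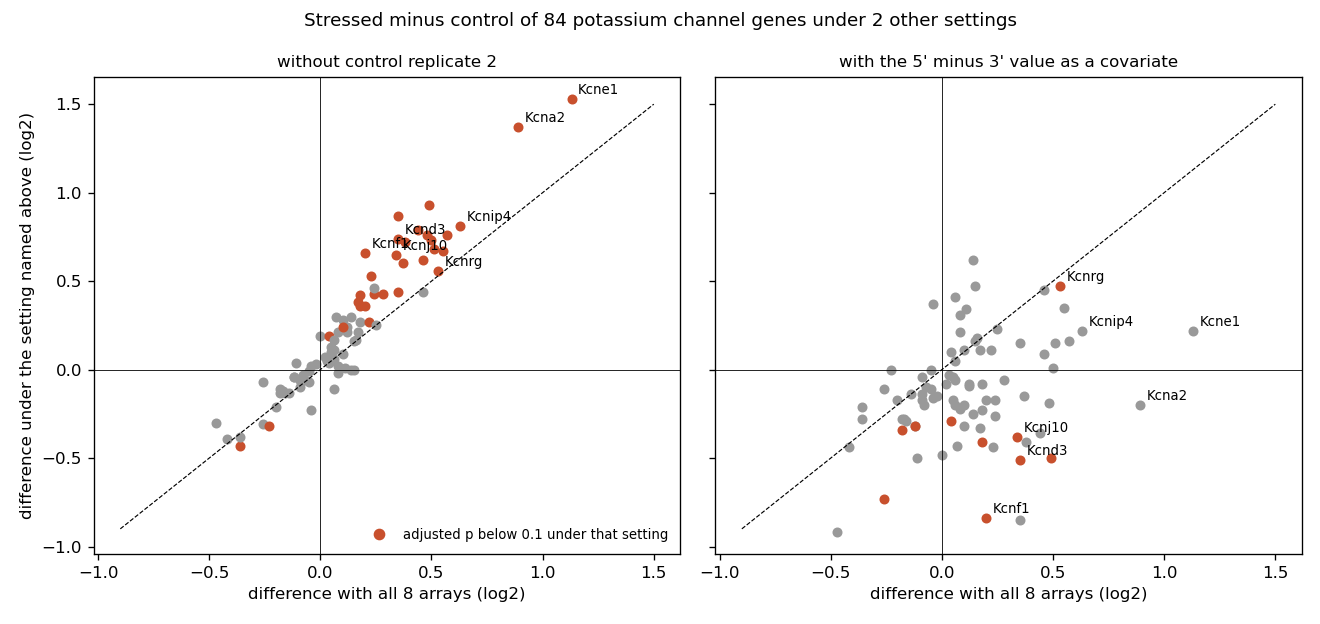
Stressed minus control difference (log2) of the 84 tested genes with all 8 arrays (horizontal) against the same without control replicate 2 (left panel) and with the 5′ minus 3′ value of each array as a covariate (right panel). Red points have an adjusted p below 0.1 under the setting of the panel, 31 on the left and 10 on the right, and the dashed line marks equal values. On the left most called points lie above the line, and on the right most lie below 0.

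Other genes of potassium channel complexes and potassium handling were taken from a list of 42, which holds Kv-associated membrane proteins, sulfonylurea receptors, HCN channels, sodium pump subunits and calmodulins. Of these 39 were tested and none was called, with a median difference of 0.02. In limma 5 were higher and 2 lower at an unadjusted p below 0.05, where 11.3% and 8.5% of all gene symbols were. Dlg4, the PSD-95 scaffold that clusters Kv1 channels, differed by 0.86 (SE 0.28, limma adjusted p = 0.164), and Abcc8 and Abcc9, the sulfonylurea receptors of ATP-sensitive channels, by -0.17 (SE 0.07) and -0.30 (SE 0.13). Those 3 were picked out by their values.

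All tested markers of neurons, astrocytes and oligodendrocytes were well above background on all arrays. The summed level of 4 neuron markers ran from 5.99 to 6.25 in the controls and from 5.98 to 6.19 in the stressed rats, and 1 of them, Eno2, was called lower. Endothelium and pericyte markers held 2 calls of 5, both higher (Pecam1 0.40, Rgs5 0.46), and oligodendrocyte markers 1 of 6, higher (Mog 0.90). Over all tested gene symbols 3.62% were called. Pdgfrb (-0.19) and Mobp (-0.03) were negative, and the remaining markers of these lists were positive. Schwann cell markers, which reflect nerve root, had a summed level of 2.76 to 6.11 in the controls and 2.72 to 4.37 in the stressed rats, with none of 3 called. Their part in the Kcn values was not tested.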

How the data were processed

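Per the file headers, the authors scanned single-colour Cy3 arrays with Agilent Feature Extraction 10.7.3.1, and the deposited values are intensity per spot, background-subtracted by that software. The deposited table of all arrays held the same processed signal intensity and served as an alternative. The study's own lists came from dChip at FDR thresholds of 0.1 and 0.05. Here log2 processed signals were scaled by subtracting each array's 75th percentile, outlier spots were left out, and spots of a probe were averaged. Of 30367 probes, 23677 were tested: those well above background on at least 4 arrays with a value on all 8. Stressed minus control was fitted in limma 3.58.1 (R 4.3.3), with Benjamini-Hochberg adjustment over all tested probes. Scripts were tested on simulated data. The number of arrays limits the precision.

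Named genes were those with a called probe, a list of 30 channels with textbook roles in spinal neurons or glia, and the largest difference each way per class. A further 5 genes at an unadjusted p below 0.05 were added with their values known. The members, lists and alternatives were chosen with earlier results of these data known. Values of some single members are not reported here. Counts and medians over the tested genes include those members, and the comparison of probe pairs leaves them out. Probe positions are on rn4 as the files give them, and their strand is the order of the file's coordinates, which matched RefSeq (GRCr8) for 56 of 60 Kcn genes. Exons and UTRs were not analysed here. Alternatives were normexp background correction, quantile normalization, the table of all arrays, other filters, a variance trend, array weights, a replicate block, the 5′ minus 3′ covariate, gene means over probes and leaving out each array.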

Additional observations from a re-analysis of the deposited data

Results flagged for a closer look

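In 8 of the 78 groups of 4 arrays examined for the named genes, the highest or lowest rat lay far from the other 3, by a gap that was a large share of the group's whole range. The rule flags about 1 in 20 independent groups by chance. The groups here share the same arrays, and some genes were named by their values, so the count cannot be set against that rate. In 7 of the 8, the array was control replicate 2, the highest control: the gap was 0.936 of the range for Kcna2, 0.973 for Kcnc4, 0.841 for Kcnip4, 0.858 for Kcnj10, 0.862 for Kcnk9, 0.84 for Kcnma1 and 0.871 for Kcnmb4. In Kcna2 that array measured 0.68 and the other controls -1.27 to -1.15. In Kcnma1 it measured -1.25 and the others -3.49 to -3.14, and in Kcnk9 -5.02 and the others -6.51 to -6.30. In Kcnmb4 it measured 0.17 and the others -0.33 to -0.26. The 5′ minus 3′ value of this array was also the highest of the 8, and its part in these gaps was not tested.

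The other lay in the stressed group. Stressed replicate 3 was the lowest for Kcnip2 (gap 0.85), at -5.20 against -4.92 to -4.87.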

How the results depend on the processing

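With all arrays 1 Kcn gene and 2 Kcn probes were called, 11 genes had an unadjusted p below 0.05 and 0 of 39 tested partner genes were called. The table of all arrays and both filters gave the same count of called genes. Called genes fell to 0 with normexp, quantile normalization, the variance trend and the replicate block, rose to 36 with array weights, which gave control replicate 2 a weight of 0.107 and called 50.6% of all tested probes, to 10 with the 5′ minus 3′ covariate and to 2 with means over probes. Called probes were 0 with normexp, 1 with quantile normalization, 1 with the variance trend, 53 with array weights, 0 with the replicate block and 12 with the covariate. Genes at an unadjusted p below 0.05 were 7 with normexp, 36 with array weights and 17 with the covariate, and called partner genes 20 and 1 with the last 2. Leaving out 1 array gave 0 to 31 called genes, 0 to 47 called probes, 5 to 32 genes at an unadjusted p below 0.05 and 0 to 16 called partner genes, the highest always without control replicate 2. Leaving out any other array gave 0 called genes. Same-numbered residuals correlated at 0.10, 0.12, -0.09 and 0.31, and only control replicate 4 correlated best with its own number. Such correlations over so few rats cannot show whether the replicate numbers pair the rats.

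The sign reversed in 32 settings of named genes, none of them called with all arrays. With quantile normalization these were Kcnj6 (-0.05), Kcnn2 (-0.11) and Kcnq5l (-0.12), with normexp Kcnj4 (0.05), and with array weights Kcnd2 (0.00011), Kcnj6 (-0.02) and Kcnn2 (-0.11). With the covariate they were Kcna2 (-0.20), Kcnab2 (-0.15), Kcnc1 (-0.17), Kcnd3 (-0.51), Kcnh2 (0.004), Kcnip1 (-0.08), Kcnj10 (-0.38), Kcnj11 (-0.41), Kcnj8 (-0.04), Kcnj9 (-0.19), Kcnk9 (-0.36), Kcnma1 (-0.85), Kcnmb4 (-0.20), Kcnq3 (0.0031) and Kcnq5l (-0.43). With means over probes they were Kcnc2 (0.03) and Kcnh2 (0.04). When 1 array was left out, values crossed 0 for Kcnq5l (-0.07 to 0.30), Kcnd2 (-0.08 to 0.02), Kcnj6 (-0.02 to 0.18), Kcnn2 (-0.11 to 0.16) and Kcnmb4 (-0.05 to 0.20). Kcnrg kept its sign in all alternatives run, between 0.21 and 0.60. The cause was not tested. Genes not well above background have no usable value here, and 4 arrays per group limit the precision.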
